A study of Mus musculus with 6 samples.

Results

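Chromatin accessibility at genes of the Wnt pathway was examined in small intestinal crypts with and without the chromatin remodeler Smarcad1. A list of 40 Wnt pathway genes was used, and a peak was taken as belonging to a gene when the table of all peaks gave it exactly that gene's name. This found 187 peaks among 123510, at 35 of the 40 genes. No row was named after Fzd1, Fzd8, Dkk3, Myc or Troy. For the first 4 of them no row lay within 5 kb of the annotated gene either, and their accessibility was not analysed here. Troy is a synonym of Tnfrsf19 in RefSeq. Tnfrsf19 had 6 peaks under its own name, which are counted below with the other Wnt pathway genes.

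The assay was ATAC-seq (a transposase cuts accessible DNA and adds sequencing adapters), run on nuclei of dissociated whole crypts of C57BL/6 mice. There were 3 wild type (WT) libraries and 3 libraries in which Smarcad1 was deleted by Vil-Cre (KO), each from 50000 cells. In the KO, Cre driven by the Villin promoter removed floxed exons 12 to 14 in the intestinal epithelium, so other cells of a crypt preparation keep the gene, and the mice came from 1 line made from 1 targeted embryonic stem cell clone. All mice of the study were males kept under specific opportunistic pathogen free conditions. No treatment is named for this assay, and ages are not given in the sources used here. Whether the WT mice carried floxed alleles is not given either. The labels name the libraries as WT and KO 1 to 3 and do not say more about the animals behind them, so p-values measure the spread between these libraries.

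Each value is a log2 normalized read count of a peak in a library, with each library scaled to the largest one, so a difference of 1 is a 2-fold difference. The libraries held 4339306 to 16301164 reads in peaks. Libraries numbered 2 stood low and those numbered 3 stood high on strong peaks in both groups. At the 12151 peaks of the table with a mean of at least 8, KO2 was the lowest KO library in 92.8% and KO3 the highest in 96.7%, and WT2 was the lowest WT library in 78.8%. The epithelial markers Cdh1, Krt8, Krt19 and Cldn7 had 14 peaks, 10 of them at Cdh1, with a median WT value of 8.01. No row was named after Epcam or Vil1. Immune markers had 9 peaks with a median of 5.10, and none was named after Cd3e or Cd79a. All 7 markers of stroma, endothelium and smooth muscle had a peak, with a median of 5.94 over 21 peaks.

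Wnt ligands bind Frizzled receptors together with the co-receptors Lrp5 and Lrp6, and this stops a destruction complex of Axin, Apc, Gsk3b and casein kinase 1 from marking beta-catenin for degradation. Beta-catenin then enters the nucleus and joins TCF/LEF factors, which otherwise hold their targets silent with Tle co-repressors. In intestinal crypts this signal maintains stem cells and proliferation, and it switches on its own inhibitors, among them Axin2, Rnf43, Znrf3, Nkd1 and Notum.

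TCF/LEF factors recognise the letters CTTTGAT, or ATCAAAG on the other strand. Over their whole length, 33 of the 187 peaks (17.6%) held these letters at 41 places, against 12.8% of all peaks and 14.2% of those with a gene name. Listed peaks were wider, with a median of 1050 bases against 750 for all peaks, and held 1.95 matches per 10 kb against 1.63. Of 185 peaks at other Wnt pathway genes, 21.6% held a match, at 2.48 per 10 kb. The sequences here are stretches of listed peaks with a match, at feedback genes, TCF factors and a receptor. They are shown because they are the places where the pathway's own DNA letters lie in open crypt chromatin. All are on the plus strand of GRCm38 and the capitals mark the motif. The peak that holds the Lgr4 stretch was classed as touching a coding exon. For Sp5, a transcription factor gene known as a Wnt target, the 300 bases before its annotated start are given.
Sp5, 300 bases before the start, chr2:70474623-70474922: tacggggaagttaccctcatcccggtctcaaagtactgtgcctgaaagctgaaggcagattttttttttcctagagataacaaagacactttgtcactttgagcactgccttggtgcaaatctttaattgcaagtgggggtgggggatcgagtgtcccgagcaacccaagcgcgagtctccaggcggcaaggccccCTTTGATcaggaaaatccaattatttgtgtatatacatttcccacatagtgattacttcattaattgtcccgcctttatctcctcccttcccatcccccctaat
Sp5, 5' part of the transcript, chr2:70475002-70475028: agccgctattCTTTGATgattgggtag
Axin2, 5' part of the transcript, chr11:108920417-108920443: gccggctgcgCTTTGATaaggtcctgg
Nkd1, start, chr8:88521244-88521304: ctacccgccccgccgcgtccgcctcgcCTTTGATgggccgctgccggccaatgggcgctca
Notum, start, chr11:120661213-120661273: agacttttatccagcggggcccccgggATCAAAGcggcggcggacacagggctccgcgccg
Tcf7, start, chr11:52283341-52283401: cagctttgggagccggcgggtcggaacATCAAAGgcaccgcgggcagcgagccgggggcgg
Tle1, start, chr4:72201214-72201274: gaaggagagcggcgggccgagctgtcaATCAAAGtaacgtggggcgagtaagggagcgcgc
Lef1, upstream, chr3:131105904-131105964: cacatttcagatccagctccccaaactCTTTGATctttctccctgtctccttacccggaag
Rnf43, intron, chr11:87709794-87709854: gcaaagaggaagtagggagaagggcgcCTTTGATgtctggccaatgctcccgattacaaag
Tcf7l2, intron, chr19:55849560-55849620: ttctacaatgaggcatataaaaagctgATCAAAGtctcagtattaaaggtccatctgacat
Lgr4, intron, chr2:109992330-109992390: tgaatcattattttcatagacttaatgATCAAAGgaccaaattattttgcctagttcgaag

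The motif of Sp5 began 104 bases before its start, and a further match began 193 bases after the first one, inside the transcript. The Axin2 match lay 0.078 kb after its start, while those of Nkd1 and Notum lay 0.083 and 0.065 kb before theirs. The Tcf7 and Tle1 matches shown lay 0.354 and 0.322 kb before their starts. These positions are descriptions of letters, and binding of a factor was not measured.

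Matches were unevenly spread over the classes of genes. Per 10 kb of peak, TCF factors and co-repressors held 2.88 matches and feedback genes and targets held 2.64. Receptors held 1.38, the destruction complex with beta-catenin held 0.962, and none of the 12 ligand peaks held a match. The value over all peaks was 1.63. Among the 33 listed peaks that touched or lay within 1 kb of an annotated start of their own gene, 10 (30.3%) held a match, at 2.85 per 10 kb, compared with 15.4% and 1.22 per 10 kb for all 21079 peaks within 1 kb of any gene start. Those 10 peaks belonged to Axin2, Nkd1, Notum, Sp5, Tcf7, Tle1, Ctnnb1, Csnk1a1 and, with 2 peaks, Lrp6, and the Tle1 peak alone held 4 matches. In the central 300 bases of the peaks alone, the listed genes (4.81%) and all peaks (4.95%) had nearly the same share with a match, and 4 of 40 feedback peaks (10.0%) and 3 of 53 TCF peaks (5.66%) had one. In the same central windows, the GATA letters AGATAA were found in 15.5% of listed peaks and 16.5% of all peaks, the CDX letters TTTATGG in 5.35% and 4.46%, and the HNF4 letters CAAAGTCC in 3.21% and 2.80%, on either strand. Of 32 RefSeq promoters (250 bases before to 50 after a start, GRCm38) that matched 24 of the listed genes, 2 held the TCF/LEF letters, those of Sp5 and Wnt11, and 3.73% of all 32851 promoters did.

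The classes differed in how many peaks their genes carried. The 6 TCF factors and co-repressors had 53 peaks, the 11 receptors had 50, the 12 feedback genes and targets had 40, the 5 genes of the destruction complex and beta-catenin had 32, and the 6 ligands had 12. Tcf7l2 carried 20 peaks, Lgr4 16, Gsk3b 15, Lrp6 13 and Znrf3 11, and these are also genes of 96.6 to 191.8 kb. With 5 kb added on each side, Lgr4 had 1.50 peaks per 10 kb and Tcf7l2 0.991, whereas Axin1, a gene of 57.1 kb, had 0.149 and Nkd1, of 73.5 kb, had 0.120. Of the peaks, 115 lay in an intron and touched no exon, 38 touched a coding exon, and 15 touched a UTR exon but no coding sequence.

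Median WT peak values were highest at the ligands and lowest at the destruction complex. The single strongest peak of a class had the opposite order, lowest for ligands (8.12) and highest for the destruction complex (10.8). The median WT value was 7.07 for ligands, 6.62 for receptors, 6.49 for feedback genes and targets, 6.48 for TCF factors and co-repressors and 6.18 for the destruction complex with beta-catenin. All peaks together had a median of 5.79 and all 61914 peaks with a gene name had one of 6.23. Ligand peaks had the highest median and destruction complex peaks the lowest in each of the 6 libraries. Wide peaks collect more reads. Per kb of width, receptors had the highest median (6.75), followed by ligands (6.68), feedback genes (6.61), TCF factors (6.58) and the destruction complex (6.48), against 6.43 for all peaks, so the order of the classes changed and their range narrowed.

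**Figure D1:**
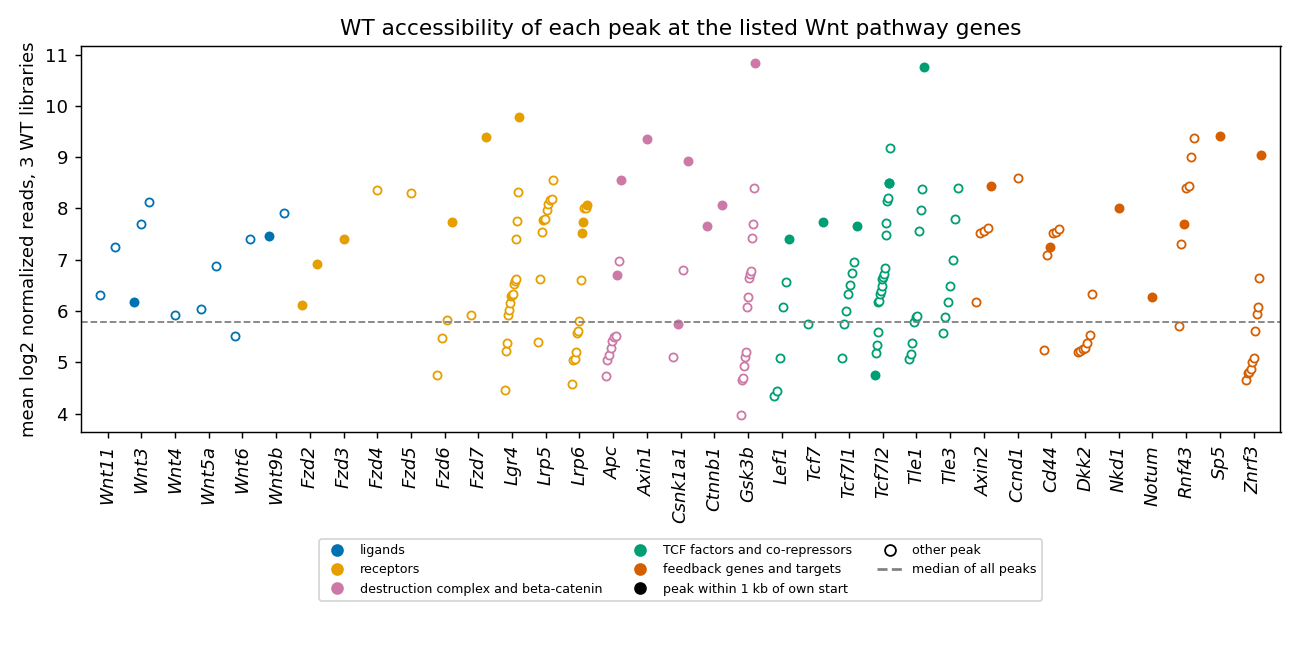
Mean log2 normalized read count over the 3 WT libraries (vertical axis) of each of the 187 peaks, by gene (horizontal axis), with colors for classes and filled points for peaks within 1 kb of an annotated start of the gene. Gsk3b and Tle1 have the strongest peaks, 10.8 in WT, and most genes with many peaks hold weak ones near or under the median of all peaks, 5.79, drawn as a dashed line.

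Peaks at gene starts were the strongest. The 33 peaks at a start had a median WT value of 7.74, compared with 6.56 for the 61 peaks between 1 and 10 kb from the nearest start of their gene, 6.15 for the 69 between 10 and 50 kb and 6.08 for the 24 farther away. Distances of single peaks are given from the gene's 5' end instead, and another annotated start of the gene can lie nearer. The strongest Rnf43 peak, 47.2 kb from the 5' end, counted among those between 1 and 10 kb from a start. That of Tcf7l2, at 109.3 kb, counted among those between 10 and 50 kb. All peaks of the table within 1 kb of a gene start had a median of 7.41. Of the 19 genes with a peak at a start and another elsewhere, the start peak was the stronger in 13. In Rnf43, Wnt3, Lrp5, Tcf7l2, Wnt9b and Cd44 a peak away from the start was stronger, by 1.68 in Rnf43 and 1.95 in Wnt3.

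**Figure D2:**
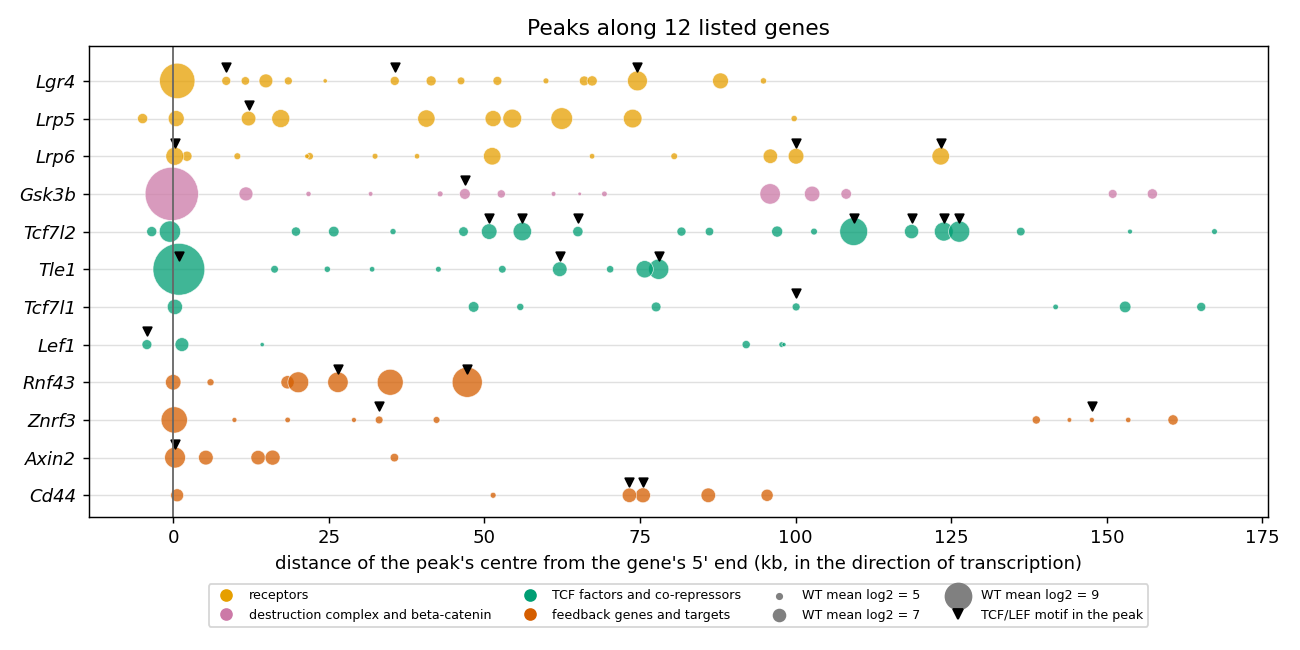
Peaks of 12 listed genes by distance of their centre from the gene's 5' end in kb (horizontal axis), with point size for the WT mean log2 value and black triangles for a TCF/LEF motif anywhere in the peak. Most genes have their largest point at 0 kb, while in Rnf43 it lies at 47.2 kb and in Tcf7l2 at 109.3 kb.

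Among the ligands, Wnt3, which Paneth cells of the crypt secrete, had 3 peaks. The peak at its start had values of 6.10, 6.05 and 6.36 in WT and 6.88, 6.19 and 6.90 in KO. KO1 and KO3 lay above all WT libraries and KO2 lay among them, with a difference of 0.49 (SE 0.28, 95% interval -0.10 to 1.08). A second Wnt3 peak, in an intron 26.6 kb from the gene's 5' end, had values of 7.65, 7.57 and 7.90 in WT and 8.21, 7.91 and 8.06 in KO. Here the groups did not overlap, with a difference of 0.36 (SE 0.29, 95% interval -0.25 to 0.97). The strongest ligand peak of WT, in an intron of Wnt3 41.0 kb from the gene's 5' end (chr11:103814401-103815900), reached 8.12 ± 0.29 (SD, n = 3) in WT and 7.93 ± 0.31 in KO. So the 3 peaks of Wnt3 had differences of both signs. Wnt9b, the neighbor of Wnt3 on chromosome 11, had peaks of 7.90 and 7.47 in WT. Wnt5a, a ligand of beta-catenin independent signals, had 2 peaks of 6.88 and 6.04 with differences of -0.11 and -0.33. Wnt6, Wnt11 and Wnt4 had strongest peaks of 7.41, 7.25 and 5.91, and their 5 peaks had differences between 0.04 and 0.32.

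Among the receptors, the start of Lgr4, a receptor for R-spondins, carried the strongest peak (chr2:109917001-109919550). Its values were 9.86, 9.22 and 10.28 in WT and 9.93, 9.07 and 10.51 in KO. The number 2 library was the lowest and the number 3 library the highest of each group, and the difference was 0.05 (SE 0.43). The Lgr4 peak with the motif shown above, 74.6 kb from the gene's 5' end, had 8.32 ± 0.39 (SD, n = 3) in WT and 8.36 ± 0.70 in KO. Fzd7, a Frizzled receptor of intestinal stem cells, had 9.42, 9.18 and 9.60 in WT and 9.49, 9.10 and 9.85 in KO at its start, a difference of 0.08 within overlapping groups. Fzd5 had its peak 5.2 kb upstream, with 8.25, 8.12 and 8.50 in WT and 8.27, 7.92 and 8.76 in KO, and Fzd4 had a peak of 8.35 in WT in a UTR exon. Fzd2, Fzd3 and Fzd6 had strongest peaks of 6.91, 7.39 and 7.74 at their starts.

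The co-receptors Lrp5 and Lrp6 carried 10 and 13 peaks. At the Lrp5 start the 6 libraries lay close together, at 7.77, 7.84 and 7.71 in WT and 7.71, 7.92 and 7.95 in KO. At the Lrp6 start the WT values of 8.10, 7.98 and 8.14 also lay close, whereas KO values spread from 7.41 in KO2 to 8.68 in KO3 with 7.91 in KO1, a difference of -0.07 (SE 0.34). Lrp5 had stronger peaks inside the gene, up to 8.54 in WT 62.4 kb from its 5' end.

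In the destruction complex, the start of Gsk3b, the kinase that phosphorylates beta-catenin, had the strongest peak of all listed genes (chr16:38087251-38090250). Its values were 10.98, 10.27 and 11.22 in WT and 10.79, 10.08 and 11.27 in KO. The groups overlapped, and the difference of -0.11 was smaller than the SD within WT (0.49) and KO (0.60). Axin1, the scaffold of the complex, had 1 peak, at its start, with 9.31, 9.19 and 9.55 in WT and 9.25, 8.95 and 9.76 in KO. Ctnnb1, which encodes beta-catenin, had 2 peaks, and the stronger one had 7.93, 8.06 and 8.22 in WT and 7.94, 7.89 and 8.68 in KO. Apc and Csnk1a1 had strongest peaks of 8.55 and 8.93 in WT, both at their starts, with differences of 0.10 and 0.11.

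Of the TCF factors, Tcf7l2, the main one of intestinal epithelium, had 20 peaks. Its strongest lay in an intron 109.3 kb from the gene's 5' end (chr19:55849351-55852950), with 8.99, 9.11 and 9.44 in WT and 9.14, 9.15 and 9.82 in KO. Its start had 8.56, 8.13 and 8.81 in WT and 8.39, 7.86 and 9.17 in KO. Both differences, 0.19 and -0.03, lay within overlapping groups, and 7 of the 20 peaks held a TCF/LEF match. Tcf7 had 7.79, 7.51 and 7.91 in WT and 7.52, 7.19 and 7.88 in KO at its start, where the KO mean was lower by 0.21 (95% interval -0.84 to 0.43). Tcf7l1, mostly a repressor, had 7.84, 7.37 and 7.75 in WT and 7.57, 7.43 and 8.11 in KO. Lef1 had 7.54, 6.97 and 7.69 in WT and 7.71, 7.21 and 7.80 in KO at its start. The co-repressor gene Tle1 had 10.98, 10.16 and 11.13 in WT and 10.68, 9.97 and 11.38 in KO at its start, again with the number 2 library lowest and the number 3 library highest, and Tle3 had a strongest peak of 8.40 in WT.

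Among feedback genes, Axin2, whose activity is often read as a measure of Wnt signal, had values of 8.49, 8.13 and 8.71 in WT and 8.59, 8.06 and 9.05 in KO at its start, a difference of 0.13 (95% interval -0.60 to 0.85). Its 3 intronic peaks had 7.51 to 7.61 in WT and 7.63 to 7.92 in KO. Both number 2 libraries were the lowest of their group and both number 3 libraries the highest at the start and at these 3 peaks. Rnf43 and Znrf3, ligases that remove Frizzled receptors from the cell surface, differed in where their strongest peak lay. That of Rnf43 was in an intron 47.2 kb from the gene's 5' end, with 9.35, 9.11 and 9.68 in WT and 9.66, 9.00 and 9.85 in KO. Its strongest start peak had 7.66, 7.37 and 8.08 in WT and 7.69, 7.40 and 8.26 in KO. That of Znrf3 was at the start, with 9.02, 8.99 and 9.10 in WT and 8.93, 8.90 and 9.18 in KO, among the most even values over the 6 libraries. Sp5 had 1 peak, with 9.45, 9.21 and 9.59 in WT and 9.23, 8.88 and 9.75 in KO, a difference of -0.13. Nkd1, an inhibitor inside the cell, had 8.22, 7.69 and 8.12 in WT and 7.78, 7.83 and 8.47 in KO. Notum, a secreted enzyme that inactivates Wnt ligands, had a weaker peak, with 6.06, 6.37 and 6.39 in WT and 6.65, 6.38 and 6.32 in KO. Cd44, a surface protein of crypt cells, had 7.56, 6.61 and 7.57 in WT and 7.45, 7.09 and 7.72 in KO at its start. Ccnd1, which encodes cyclin D1, had 1 peak 2.7 kb upstream with 8.59 in WT and 8.69 in KO. Dkk2, a secreted inhibitor, had 7 peaks, none at its start and none above 6.34 in WT. At every one of the Axin2, Rnf43, Znrf3, Sp5, Nkd1, Notum and Cd44 start peaks the WT and KO libraries overlapped.

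**Figure D3:**
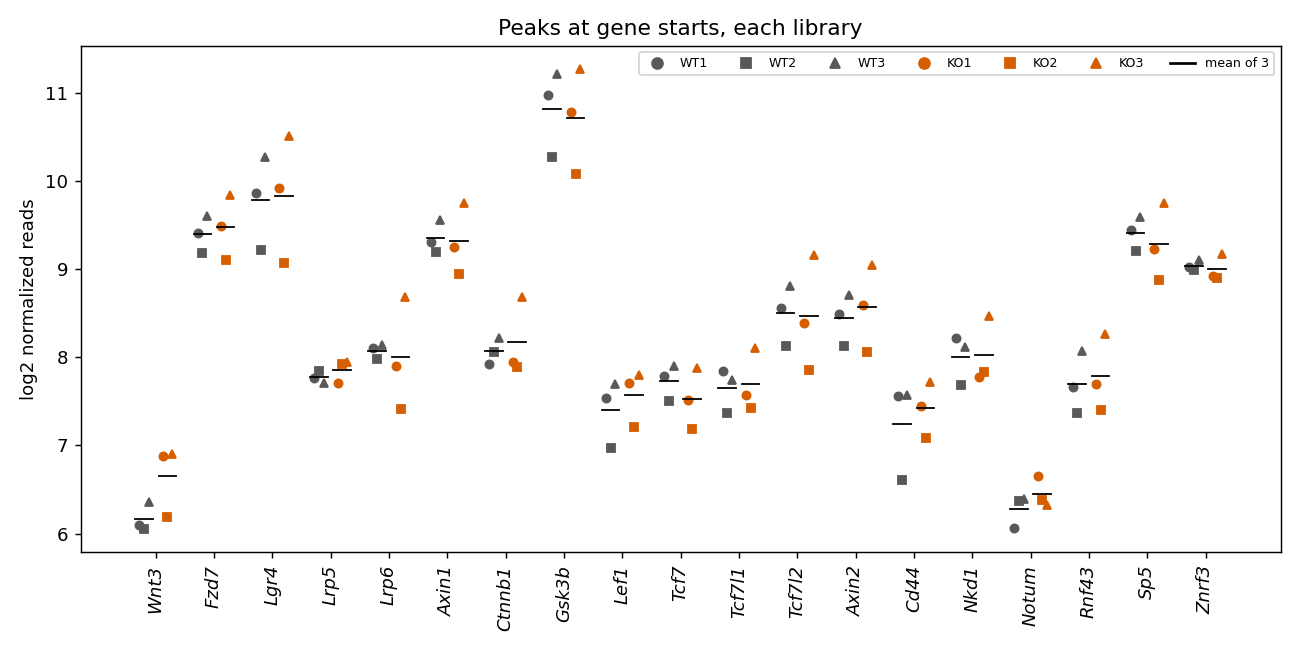
Log2 normalized read counts (vertical axis) of the strongest start peak of 19 listed genes in each library, with WT gray, KO orange, a symbol for each replicate number and a line at the mean of 3. At most genes the squares (WT2 and KO2) lie lowest and the triangles (WT3 and KO3) highest, and WT and KO overlap at each gene.

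The order of libraries at the 33 start peaks was the one seen over strong peaks of the whole table. KO2 was the lowest KO library at 27 of the 33 and KO3 the highest at 27, and WT2 was the lowest WT library at 26 and WT3 the highest at 26. The part of this order in the differences was not tested.

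No peak of the listed genes passed the test for KO against WT. A limma model over all 123510 peaks called 0 of the 187 at a Benjamini-Hochberg adjusted p below 0.05, and 0 of all peaks (0%), with a smallest adjusted p of 1.00 among the 187. The authors tested the same libraries with edgeR and did call peaks as changed, which were not used here. The 0 over all peaks therefore belongs to this limma fit. At an unadjusted p below 0.05 there were 4 of 187 peaks (2.14%), and 2.28% of all peaks passed that limit. All 3 KO values lay above all 3 WT values at 7 listed peaks (3.74%, against 2.7% of all peaks), and below them at 4 (2.14%, against 4.1% of all peaks). The share above WT was higher than in the whole table and the share below WT was lower, each by less than 2 percentage points. The 95% interval of a difference reached 0.664 to either side at the median listed peak, so at such a peak a difference of that size or less cannot be told from 0 with 3 libraries a group, even before adjustment.

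The 4 peaks with an unadjusted p below 0.05 were weak ones. In an intron of Gsk3b, 65.3 kb from its 5' end (chr16:38154151-38154450), values were 2.97, 4.05 and 4.91 in WT and 5.03, 5.27 and 5.32 in KO, a difference of 1.23 (SE 0.46, 95% interval 0.25 to 2.22). All KO values were above all WT values there, and the peak held 4 to 30 reads a library. In an intron of Znrf3, 9.8 kb from its 5' end, values were 4.29, 5.05 and 5.04 in WT and 5.77, 5.27 and 5.46 in KO, a difference of 0.70 (SE 0.31, 95% interval 0.05 to 1.36). At an alternative start of Csnk1a1, 27.5 kb inside the gene, values were 5.50, 5.88 and 5.86 in WT and 5.12, 4.91 and 4.80 in KO, a difference of -0.80 (SE 0.26, 95% interval -1.36 to -0.24). In an intron of Lrp6, 32.4 kb from its 5' end, values were 5.37, 5.05 and 5.21 in WT and 4.71, 4.33 and 4.58 in KO, a difference of -0.67 (SE 0.31). The groups did not overlap at any of the 4, and each had an adjusted p of 1.00. The next smallest p-values belonged to weak peaks of Lrp5, Lgr4 and Znrf3 with higher KO means, by 0.53 to 0.60, and of Lrp6, Tle1 and Znrf3 with lower KO means, by 0.56 to 0.74 on the log2 scale.

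**Figure D4:**
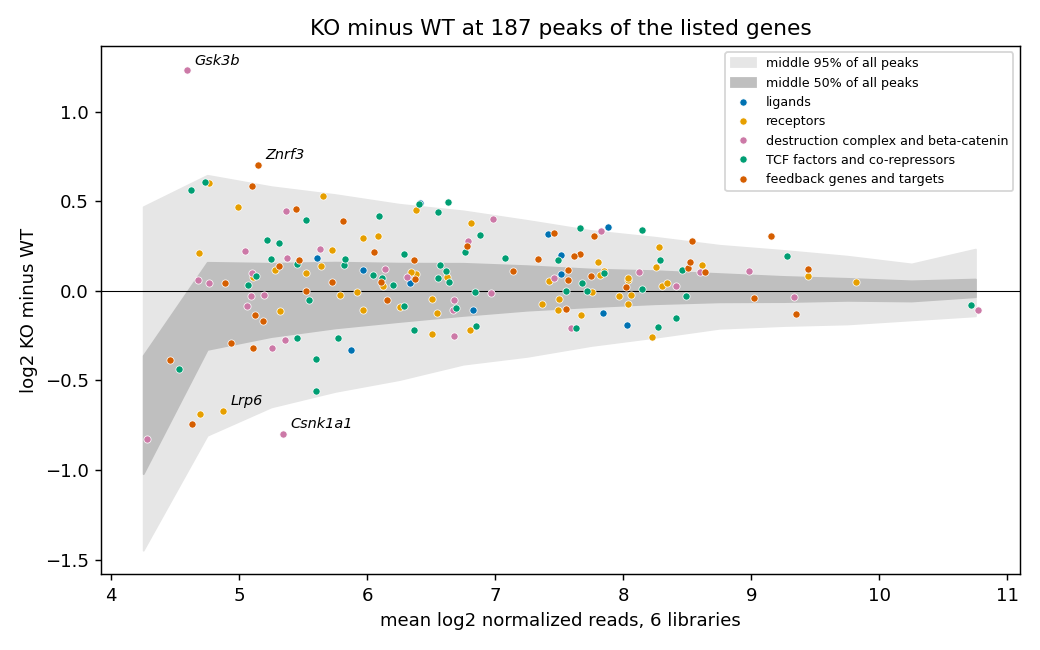
Log2 KO minus WT (vertical axis) against mean log2 normalized read count over 6 libraries (horizontal axis) for the 187 peaks, colored by class, over bands that hold the middle 50% and 95% of all peaks of the same level. The 4 named peaks have an unadjusted p below 0.05 and lie under a mean of 6, and the strongest peaks lie close to 0.

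Spread around 0 fell with peak level. Among the 66 listed peaks with a mean under 6, differences ran from -0.83 to 1.23 with a median size of 0.23, and over all peaks of that level the median size was 0.21. The 37 listed peaks with a mean of at least 8, at 21 genes, had differences between -0.26 and 0.34 with a median size of 0.11, compared with 0.08 for all peaks of that level. None of the 37 had groups that did not overlap, and over all 12151 peaks of that level KO lay above WT at 0.329% and below it at 0.148%.

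The difference was above 0 at 121 of the 187 peaks (64.7%). It was above 0 at 46.9% of all peaks and at 51.3% of those with a gene name, as all listed peaks have. Of the 185 peaks of other Wnt pathway genes, 54.6% were above 0. The median difference was 0.08, compared with -0.02 for all peaks, 0.01 for all peaks with a gene name and 0.03 for 185 peaks of other Wnt pathway genes. By class, the median was 0.11 for feedback genes and targets (29 of 40 above 0), 0.10 for ligands (8 of 12), 0.09 for TCF factors and co-repressors (36 of 53), 0.06 for receptors (30 of 50) and 0.05 for the destruction complex with beta-catenin (18 of 32). Each was smaller than the SD of the class median between the 3 libraries of a group, which ran from 0.125 to 0.448. Peaks of a library share its depth and quality, and they are not replicates. The listed median moved when single libraries were left out. The median of all peaks moved with it and was the lower in each fit given here. The listed median was -0.004 without WT2 and -0.05 without KO3, when the median of all peaks was -0.14 and -0.11. It was 0.22 without KO2 and 0.19 without WT3, when that of all peaks was 0.08 and 0.08. The peaks of epithelial marker genes also had differences mostly above 0, with 12 of 14 above 0 and a median of 0.21. Of these 14 peaks, 10 belonged to Cdh1, so they stand mostly for 1 gene. The summed level of the 14 was 11.63 to 12.08 in WT and 11.76 to 12.36 in KO. Immune marker peaks had 3 of 9 above 0 and summed levels of 9.01 to 9.20 in WT and 9.00 to 9.16 in KO. Stromal, endothelial and muscle marker peaks had 12 of 21 above 0, with summed levels of 10.55 to 10.81 in WT and 10.51 to 10.90 in KO. The part of cell makeup in the differences was not tested, and in bulk nuclei more cells of a type and more open chromatin per cell cannot be told apart.

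**Figure D5:**
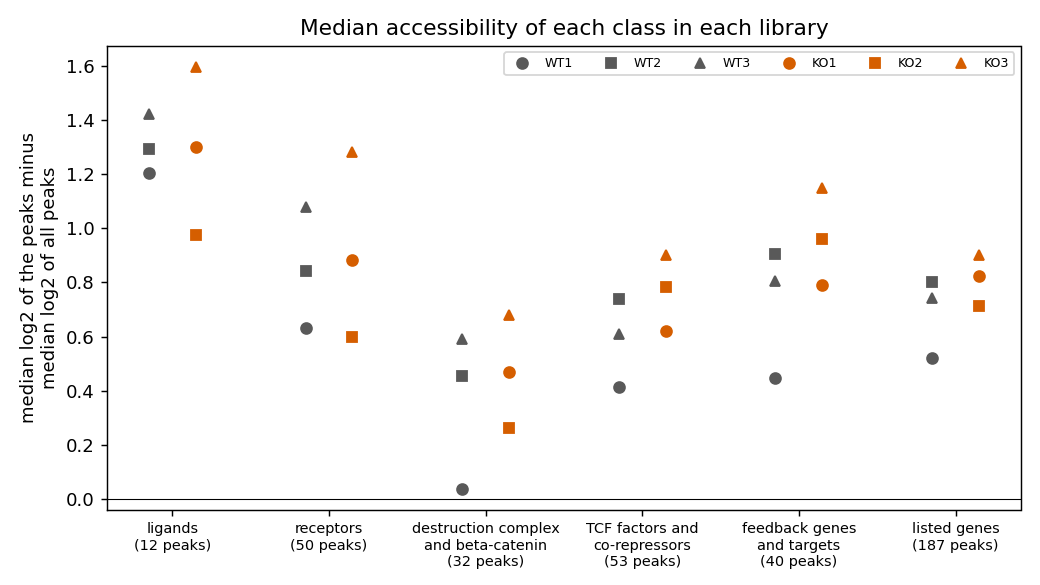
Median log2 value of each class of peaks minus the median of all peaks in the same library (vertical axis), for WT (gray) and KO (orange) libraries, with a symbol for each replicate number. Ligands lie highest and the destruction complex lowest in each library, and WT and KO libraries overlap in every class.

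At 2 genes with more than 2 peaks, Rnf43 and Lef1, all peaks had a KO mean above the WT mean. There were 18 listed genes with more than 2 peaks, and none had all below. The share over all genes of the whole table is not given here, so this cannot be read as particular to Rnf43 or Lef1. The 7 Rnf43 differences were 0.05 to 0.32 and the 6 Lef1 differences were 0.07 to 0.60, and at each of these 13 peaks the groups overlapped. The Rnf43 peak at 34.9 kb had 8.83, 8.81 and 9.37 in WT and 9.39, 8.74 and 9.79 in KO. KO2 was the lowest of the 6 libraries there, so the higher mean came from KO1 and KO3.

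Other genes of the pathway were counted in the same way. Of 60 further ligands, receptors, inhibitors and targets, 52 had a peak, and 0 of their 185 peaks were called by limma, with 6 (3.24%) at an unadjusted p below 0.05, against 0% and 2.28% of all peaks. The R-spondin receptor and stem cell marker Lgr5 had 6 peaks with a strongest WT value of 8.59, Ephb3 reached 9.48, Btrc, which marks beta-catenin for degradation, 9.44, and Tle4 10.50. No row was named after the crypt target Ascl2.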

How the data were processed

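Libraries were grouped by their titles. Per the labels and the study's methods, the authors trimmed reads with Trim Galore (0.4.1), mapped them to GRCm38 with Bowtie2 (2.2.5), removed duplicates, applied a mapping quality limit of 20 and a fragment limit of 1000 bp, and called 1 set of MACS peaks in SeqMonk. Whether reads were shifted for the transposase is not given in the sources used here. The deposited values are log2 read counts per peak, normalized by the authors to the largest library, and the authors named a peak after a gene within 5 kb. The deposited table of peaks that the authors called with edgeR, with adjusted p-values, was not used.

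On the linear scale the values are whole multiples of the value of 1 read (100% within 0.01 of a whole number in each library), which gave the depths of 6180717 to 16301164 (WT) and 4339306 to 7721797 (KO) reads in peaks. The reads were amplified by PCR and carry no molecular identifiers, so several may stem from the same molecule. A linear model per peak in limma (3.58.1, R 4.3.3; lmFit and eBayes with trend, two-sided, no block, no filter, no pseudocount) was fitted to all 123510 peaks and 6 libraries, since the deposited values are on a log2 scale, with Benjamini-Hochberg adjustment over all peaks and a threshold of 0.05. The fit was run on simulated data with large known changes and noise that was independent between libraries. That run does not measure how the fit does at the small differences and shared library order seen here.

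Annotated starts, exons and gene ends came from GENCODE vM21 and sequences from the GRCm38 genome and promoters of RefSeq. Named with every library's value were the strongest start peak of 22 chosen genes where they had one, the strongest peak of each class, and the 5 listed peaks of smallest p in each direction. Other genes and peaks with values were chosen after these were seen. The members, classes and gene lists were chosen with earlier results of these data known. Alternatives were other scalings (median centring, TMM, quantile normalization), a pseudocount of 5, a minimum mean of 6, the replicate number as a block, leaving out each library, a threshold of 0.1, annotation in place of peak names, value per kb, 2 kb for starts and, chosen after seeing the data, limma voom on recovered reads.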

Additional observations from a re-analysis of the deposited data

How the results depend on the processing

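None of the alternatives called a peak of the listed or the other Wnt pathway genes, at an adjusted p below 0.05 or 0.1. In limma the listed peaks with an unadjusted p below 0.05 numbered 0 to 20 over the alternatives. The share of all peaks past that limit moved too, from 0.894% with a minimum mean of 6 (0 listed) to 6.87% with the replicate block (20 listed, 10.7%), and with voom on recovered reads it was 3.05% (7 listed, 3.74%). The planned count model on whole reads was not run, because the choice of test followed the deposited log2 unit. Whole reads could be recovered, and limma voom on them was run instead. Of 424 values for the 31 named peaks under alternatives, 393 kept their direction and 31 changed sign, 30 of them without 1 library. Start or strongest peaks that changed sign in at least 1 fit without a library had log2 KO minus WT in these ranges: Axin1 -0.25 to 0.15, Axin2 -0.12 to 0.38, Cd44 -0.14 to 0.34, Ctnnb1 -0.15 to 0.25, Fzd7 -0.10 to 0.27, Lef1 -0.0450 to 0.36, Lrp6 -0.41 to 0.22, Nkd1 -0.20 to 0.14, Rnf43 -0.15 to 0.28, Tcf7l1 -0.16 to 0.18, Tcf7l2 -0.37 to 0.28, Znrf3 -0.13 to 0.0129, Gsk3b -0.39 to 0.21, Lgr4 -0.29 to 0.43, Sp5 -0.36 to 0.0733, Tle1 -0.43 to 0.28. Nkd1 also changed sign with quantile normalization (-0.0038). The other 15 named peaks, which include the 4 with an unadjusted p below 0.05, kept their direction in every fit run. At those 4 the groups did not overlap, so leaving out 1 library could not change their sign. The peaks of smallest p were also chosen from these same values, so their kept direction is no separate check. Without 1 library the listed median ran from -0.05 to 0.22. Under the other alternatives it was 0.07 to 0.09, and the scalings moved the median of all peaks by less than 0.1.

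The median WT value of ligands became 6.68 per kb of peak width, and the share of start peaks, 17.6% (Wilson 95% interval 12.9% to 23.7%) within 1 kb, became 24.6% within 2 kb. By annotation in place of peak names, 193 peaks belonged to the listed genes.

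The numbers 1 to 3 in the titles were checked as pairs. After subtracting group means, same-numbered libraries correlated at 0.036, 0.418 and 0.407, so those numbered 2 and 3 shared part of their spread. No label says that the numbers mark litters or batches, and for that reason the main fit did not take them as pairs. With the replicate block, 0 listed peaks were called, 20 (10.7%, against 6.87% of all peaks) had an unadjusted p below 0.05, and 272 of all peaks (0.22%) were called, or 266 with median centring. The listed median stayed 0.08 with the block. Depth limits the weak peaks most: the median listed peak held 27 reads in its shallowest library.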
